A study of Drosophila melanogaster with 2 samples.

Results

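The genes described are 8 heat shock genes of Drosophila melanogaster, taken by name: Hsp83, Hsp22, Hsp23, Hsp26, Hsp27, Hsp67Ba, Hsp67Bc and Hsp68. They are 8 of 18164 annotated genes. For each gene, every region was taken whose summit lay in the gene body or within 1 kb of it. The data are ChIP-seq, chromatin immunoprecipitation with sequencing, of the CG4707 protein carrying GFP at its C terminus. The series holds 1 group, embryos of a stable transgenic CG4707-GFP line, with the sexes mixed and an age of 0 to 14 h, in biological replicates numbered 2 and 3. Both replicates carry the transgene, and no group without it and no heat-shocked group is among these samples. Whole embryos were used, so cell types cannot be told apart. Per the labels, each library is described as an input control in one place, and elsewhere as ChIP for a transcription factor, with an antibody and another experiment as its control. The second reading was used. Sequencing depth is unknown, since the files used hold regions only.

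Heat shock genes encode chaperones, proteins that hold or refold other proteins. On heat stress, trimers of heat shock factor (Hsf) bind heat shock elements, arrays of inverted GAA units upstream of these genes, and release RNA polymerase that waits near the start site. Several of the promoters also carry GAGA repeats, which bind the GAGA factor in flies. Hsp83 is the fly Hsp90, a chaperone that is made without heat as well. Hsp68 is an inducible member of the Hsp70 family. Hsp22, Hsp23, Hsp26, Hsp27, Hsp67Ba and Hsp67Bc belong to the small heat shock proteins, which share an alpha-crystallin domain, and their 6 genes lie in 1 cluster on chromosome 3L. Some of the small heat shock genes also respond to ecdysone during development.

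The sequences below are those of the peaks on which the results turn, with 1 promoter of the same family that had no peak for contrast. They run 5′ to 3′ on the strand of the gene, from the Release 6 (dm6) genome. Capitals in the promoter sequences mark heat shock elements of 2 inverted units (GAANNTTC or TTCNNGAA, each equal to its own reverse complement) and TATAAA on either strand. The Hsp27 peak is shown whole (chr3L:9383784-9384051, plus strand), and it ends just short of the transcription start site (TSS).
Hsp27 peak: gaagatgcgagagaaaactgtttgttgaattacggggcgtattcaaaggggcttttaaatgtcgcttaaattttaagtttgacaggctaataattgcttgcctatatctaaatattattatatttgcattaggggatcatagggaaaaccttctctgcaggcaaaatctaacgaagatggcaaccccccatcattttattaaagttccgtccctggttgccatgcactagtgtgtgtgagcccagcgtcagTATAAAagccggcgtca
Of the Hsp26 peak, the 300 bases before the upstream TSS are shown, which leave out its far end (chr3L:9377428-9377727, minus strand).
Hsp26 peak, upstream part: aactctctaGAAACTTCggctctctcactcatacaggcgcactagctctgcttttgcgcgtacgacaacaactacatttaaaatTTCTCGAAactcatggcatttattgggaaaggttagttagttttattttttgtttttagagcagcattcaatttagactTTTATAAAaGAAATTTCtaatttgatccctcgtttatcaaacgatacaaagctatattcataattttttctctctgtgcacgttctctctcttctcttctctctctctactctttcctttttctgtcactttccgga
The Hsp68 peak is shown upstream of the TSS (chr3R:24057311-24057513, minus strand).
Hsp68 peak, upstream part: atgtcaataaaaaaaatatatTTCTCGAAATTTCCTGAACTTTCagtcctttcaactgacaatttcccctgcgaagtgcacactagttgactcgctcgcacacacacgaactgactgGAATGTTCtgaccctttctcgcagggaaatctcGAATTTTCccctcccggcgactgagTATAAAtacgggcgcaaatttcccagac
The 250 bases before the TSS of Hsp23, a promoter with elements and without a peak, come from chr3L:9381632-9381881, plus strand.
Hsp23 upstream: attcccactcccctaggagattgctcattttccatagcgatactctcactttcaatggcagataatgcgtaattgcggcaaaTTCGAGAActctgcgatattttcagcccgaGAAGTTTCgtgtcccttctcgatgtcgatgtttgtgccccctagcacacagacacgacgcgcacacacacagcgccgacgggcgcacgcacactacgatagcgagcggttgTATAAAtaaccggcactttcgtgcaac
The Hsp83 promoter peak lies in a 5′ UTR of 1 annotated transcript, so only its heat shock element is shown (chr3L:3193137-3193166, plus strand, the element in capitals).
Hsp83 element: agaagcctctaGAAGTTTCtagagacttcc
The other Hsp83 peak lies wholly in an intron (chr3L:3194170-3194374, plus strand). Capitals there mark ACAGTG on the other strand, a 6-mer known from earlier work on these data to be in excess in the peaks.
Hsp83 intron peak: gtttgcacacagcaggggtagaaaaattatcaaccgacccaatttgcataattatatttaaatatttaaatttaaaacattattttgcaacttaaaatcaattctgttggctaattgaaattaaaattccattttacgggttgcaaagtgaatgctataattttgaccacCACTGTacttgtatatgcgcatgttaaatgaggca

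Of the 8 genes, 5 had a peak that passed the authors' reproducibility threshold (irreproducible discovery rate) in the body or within 1 kb: Hsp83, Hsp27, Hsp26, Hsp67Ba and Hsp68. Over all genes the share was 18.2%, and over the 13890 genes no longer than Hsp83, the longest of the 8 at 4091 bp, it was 12.2%. Hsp26 and Hsp67Ba were counted through 1 shared peak, and Hsp83 had a pair, so the 5 genes held 5 distinct peaks. Within 500 bp of a TSS of the gene itself lay a peak of 4 genes, Hsp83, Hsp27, Hsp26 and Hsp68, where 10.5% of all genes had one. No test was run on these counts, since the 8 genes were chosen with results of these data known. Hsp22, Hsp23 and Hsp67Bc had no peak by this rule. The nearest peaks lay 2584, 1152 and 5051 bp outside these genes, and all of them belong to Hsp26 or Hsp27.

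The wider lists separate genes less. Each replicate and the pooled reads gave 30000 regions, which include regions below the threshold. The pooled list is described on deposit as peaks and background. All 8 genes had at least 1 region in each of these lists. The share of all genes was 60.2% in the pooled list, 61.8% in replicate 2 and 61.3% in replicate 3. The signal is the value of the authors' caller, whose unit is not described, so it is compared within a list only, and ranks run from 1, the highest. The 8 genes held 12 distinct pooled regions, 15 of replicate 2 and 14 of replicate 3. Of these, 5, 5 and 6 stood among the 3470 highest of their list, as many as there are thresholded peaks.

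**Figure D1:**
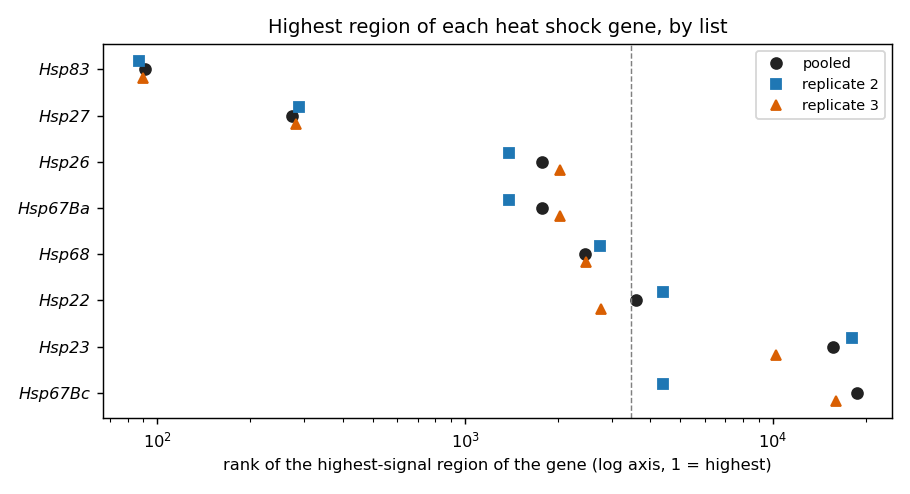
Rank of the highest-signal region of each of the 8 genes (log axis) in the pooled list (circles), replicate 2 (squares) and replicate 3 (triangles), with the dashed line at rank 3470. Hsp83 and Hsp27 stand far to the left with nearly equal ranks in both replicates, and Hsp23 and Hsp67Bc stand to the right of the line. Hsp26 and Hsp67Ba show the same region, and the square of Hsp67Bc is a region inside Hsp22.

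Hsp83 (FBgn0001233, chr3L:3192969-3197059, plus strand) carried the highest peak of the 8 genes. Its promoter peak spanned chr3L:3192947-3193267 and ranked 91 of 3470 with a signal of 951. In replicate 2 the matching region had a signal of 463 and ranked 87, and in replicate 3 it had a signal of 511 and ranked 90. The ranks differed by little between replicates, and the summits lay 18 and 5 bp from the pooled one. Across all 3470 peaks, the median distance to the nearest replicate summit was 11 bp in either replicate. The gene has 2 annotated TSSs, 247 bp apart. The summit fell between them, 108 bp upstream of the downstream TSS and 139 bp downstream of the other, in the 5′ UTR of 1 of 2 transcripts. Replicates 2 and 3 placed it 90 and 113 bp upstream of the downstream TSS. The heat shock element printed above is centred 43 bp from the summit on the side of the gene, 65 bp before that TSS, and a TATAAA follows, centred 28 bp before it.

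A further peak lay in the Hsp83 intron, at chr3L:3194170-3194374. It ranked 468 with a signal of 402 in the pooled list, 435 (signal 207) in replicate 2 and 529 (signal 196) in replicate 3. Its summit was 1059 bp downstream of the nearer TSS, and the replicate summits were 14 and 15 bp away from it. Of the 5 peaks it alone held ACAGTG within 100 bp of the summit, at 67 bp. Among all genes, 4.61% had 2 or more peaks, and 1.45% of the genes no longer than Hsp83 did. The last of its 3 pooled regions, at rank 5968 (signal 82.0), was below the threshold and lay 610 bp past the end of the gene. Its nearest TSS was that of CG14966, 38 bp away, and it ranked 4749 and 9292 in the replicates.

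**Figure D2:**
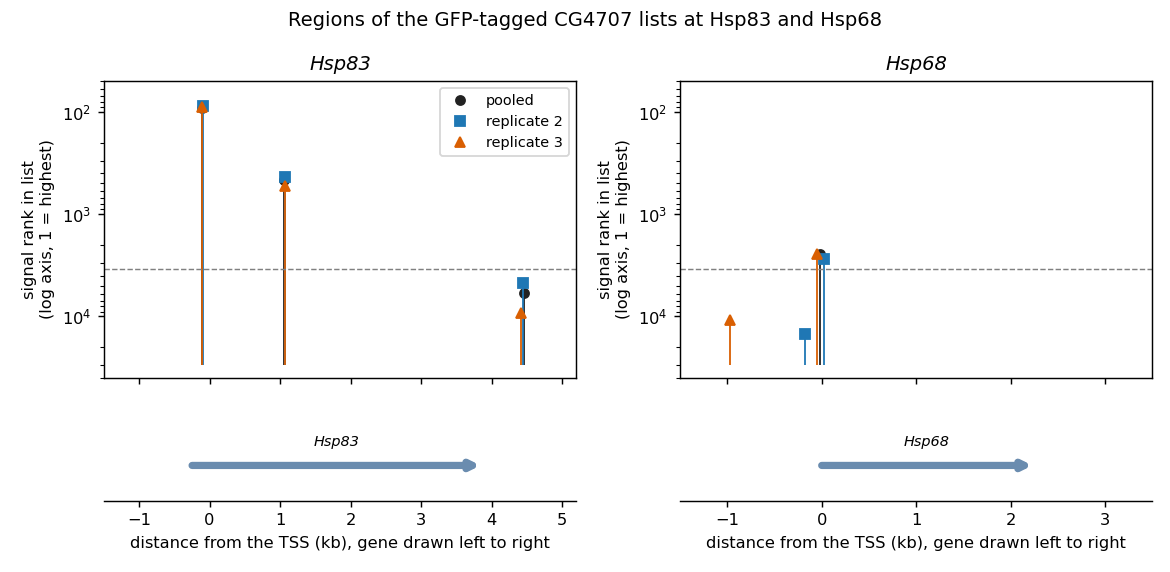
Regions at Hsp83 (left) and Hsp68 (right), by distance from the TSS in kb (the downstream TSS for Hsp83), with each gene drawn left to right as an arrow. The height of a stem is the rank in its list on a reversed log axis, and the dashed line is rank 3470. Both high Hsp83 regions coincide in the pooled list and both replicates, while Hsp68 has 1 group of regions at its TSS that clears the line.

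Hsp68 (FBgn0001230, chr3R:24055080-24057310, minus strand), the Hsp70 family member, had a weaker peak at its TSS. The peak at chr3R:24057134-24057513 ranked 2447 with a signal of 147. The nearest regions ranked 2736 (signal 70.6) in replicate 2 and 2465 (signal 76.8) in replicate 3, both inside the top 3470. The pooled summit lay 14 bp upstream of the TSS, between the summit of replicate 2, 26 bp downstream, and that of replicate 3, 48 bp upstream. The summits thus spread over more than those of Hsp83 and Hsp27, on chromatin cut to 200 to 800 bp. Over all 1569 promoter peaks the quartiles of the summit position were -185, -73 and 20 bp from the nearest TSS, and each of the 4 promoter summits of the heat shock genes lay in that range.

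The small heat shock gene cluster spans 14.2 kb, from the end of Hsp67Bc to the end of Hsp27 (chr3L:9371511-9385694). Promoter peaks stood at Hsp27 and Hsp26 and at none of the other 4 genes. The pooled list had 8 summits in the cluster, or 0.564 per kb, where the genome had 0.224 per kb. The thresholded list had 2, or 0.141 per kb, where the genome had 0.0259. These 2 are the Hsp26 and Hsp27 peaks counted above, so their density is not a separate result. The cluster is bounded by the chosen genes, while the genome values include sequence between genes. The longest stretch with no pooled summit ran 4132 bp, from the Hsp26 peak to the first region of Hsp23, and covers all of Hsp67Ba. In the replicates the stretch was 4268 and 4047 bp long. At the genome value of 0.224 summits per kb, a stretch of this length is not unusual. The spacing of summits elsewhere was not computed.

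**Figure D3:**
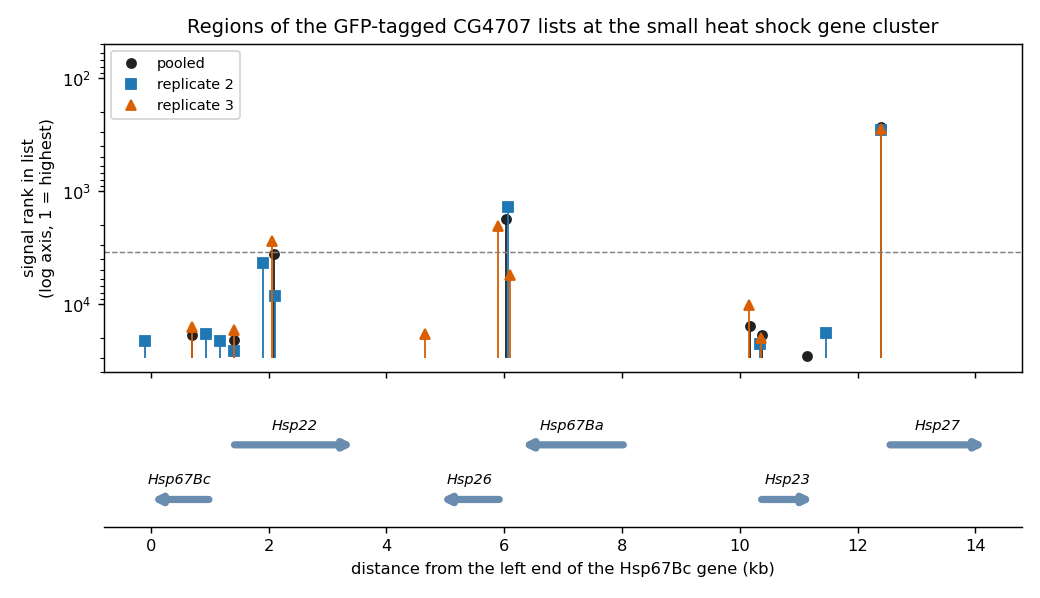
Regions across the small heat shock gene cluster, by distance in kb from the left end of Hsp67Bc, with the 6 genes as arrows below. Stems give the rank of each region in the pooled list (circles), replicate 2 (squares) and replicate 3 (triangles) on a reversed log axis, with the dashed line at rank 3470. The regions before Hsp27 coincide at the top, those before Hsp26 and inside Hsp22 lie near the line, and no region lies over Hsp67Ba.

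Hsp27 (FBgn0001226, chr3L:9384063-9385694, plus strand), whose product is found largely in the nucleus, had the highest region of the cluster. Its signal was 510 at rank 273 in the pooled list, 245 at rank 289 in replicate 2 and 267 at rank 281 in replicate 3. The summit lay 146 bp upstream of the only TSS, and both replicates placed it 152 bp upstream. It was 268 bp wide, against a median of 380 bp for pooled regions, a width below which 41.7% of the peaks fell. The printed sequence shows that neither a heat shock element of 2 units, nor the 6-mer, lay within 100 bp of this summit. TATAAA starts 28 bp before the TSS, near the end of the printed sequence.

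Hsp26 (FBgn0001225, chr3L:9376418-9377427, minus strand), a cytosolic small heat shock protein, shared its peak with Hsp67Ba. The peak (chr3L:9377358-9377737) ranked 1783 with a signal of 179. Replicate 2 had 1 region there, at rank 1384 with a signal of 106 and a summit 152 bp upstream of the nearer TSS. Replicate 3 had 2 regions in its place, at rank 2037 (signal 86.4) with a summit 13 bp downstream of a TSS, and at rank 5545 (signal 47.2) with a summit 188 bp upstream. The region nearest to the pooled summit in replicate 3 was the weaker of them, 67 bp away, and it fell outside the top 3470. Nearest regions in the top of both replicates were found for 73.3% of all peaks. The pooled summit lay 121 and 173 bp upstream of the TSSs of Hsp26, 52 bp apart. From Hsp67Ba (FBgn0001227, chr3L:9377802-9379534, minus strand), a small heat shock protein whose role is little known, the same summit lay 254 bp past the 3′ end and 1986 bp from the TSS, so that the count of Hsp67Ba rests on a neighbour's promoter.

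Hsp22 (FBgn0001223, chr3L:9372931-9374964, plus strand), whose protein acts in mitochondria, stood just outside the threshold. Its highest pooled region (chr3L:9373411-9373790, signal 115) ranked 3591, whereas the last peak inside had rank 3470 and the signals on either side of the line were both 118. The replicates disagreed about it. Replicate 3 had a region at rank 2764 (signal 71.9), and replicate 2 had a pair at ranks 4378 (signal 53.2) and 8517 (signal 34.2), so it would be in the top 3470 of replicate 3 alone. The pooled summit lay 396 bp upstream of the downstream TSS of Hsp22. It is within the 5′ UTR of 1 of 2 Hsp22 transcripts and the 3′ UTR of 2 of 4 transcripts of CG4456, also called Hsp67Bb, which overlaps Hsp22. A region at rank 21104 had its summit 10 bp from the shared upstream TSS. It was weak, with a signal of 34.4 where the lowest of the pooled list was 26.7. In replicates 2 and 3 the nearest regions ranked 26173 and 17000.

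Hsp23 (FBgn0001224, chr3L:9381882-9382765, plus strand), a cytosolic small heat shock protein, had 3 pooled regions, at ranks 15683, 18768 and 29267, with signals of 42.2, 37.3 and 27.2. The highest lay 202 bp upstream of the TSS and the next 6 bp downstream of it. Replicate 3 had regions 220 and 13 bp upstream, at ranks 10250 and 20045. Replicate 2 had one 35 bp upstream, at rank 22595, and its highest, at rank 18024, lay 211 bp past the 3′ end. A low region with its summit near the TSS was thus in all 3 lists, but at the level of background. Its deposited −log10 q was 0.676 in the pooled list, 0.557 in replicate 2 and 0.583 in replicate 3. The peak of Hsp27 had 3.875 in the pooled list. Replicate 2 had no separate summit farther upstream, though its region at the TSS overlapped the upstream pooled region. Both heat shock elements of the printed sequence lay within 100 bp of the highest pooled summit.

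Hsp67Bc (FBgn0001229, chr3L:9371511-9372497, minus strand), a small heat shock protein that works with the BAG protein Starvin in autophagy, had 2 pooled regions, at ranks 18701 and 21104, both of which also lie within 1 kb of Hsp22. The highest was inside the coding sequence, 291 bp from the TSS. The deposited −log10 q of these 2 pooled regions was low, 0.679 and 0.577. The best region counted to Hsp67Bc in replicate 2, at rank 4378, is the one inside Hsp22, 924 bp from the TSS of Hsp67Bc. In replicate 3 the best ranked 16011.

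By pooled rank the order was Hsp83, Hsp27, Hsp26 with Hsp67Ba, Hsp68, Hsp22, Hsp23 and Hsp67Bc. Taking the highest region of each gene in each replicate, the ranks of neighbours in this order did not overlap down to Hsp22. The lower rank of Hsp68 (2465 and 2736) came close to the higher rank of Hsp22 (2764 and 4378). Those of Hsp23 (10250 and 18024) and Hsp67Bc (4378 and 16011) overlapped. The highest region is not always at the pooled summit. By the region nearest to that summit, Hsp26 ranked 1384 and 5545 in replicates 2 and 3. Its range then overlapped those of Hsp68 (2736 and 2465) and Hsp22 (8517 and 2764). With 2 replicates and ranks alone, no test of this order was made. The peaks next in rank to each of these say only which genes have nearly equal pooled signal. They were nearest to Ubr3 and lncRNA:CR31044 around Hsp83, SNF4Agamma and Elp5 around Hsp27, Reck and CG5004 around Hsp26, and Syx1A and CG43325 around Hsp68.

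Heat shock elements of 2 units lay within 100 bp of the summit in 3 of the 5 peaks, at Hsp83, Hsp26 and Hsp68. They were present in 9.54% of all peaks, 10.1% of the 1569 promoter peaks and 9.47% of 6899 promoter regions below the threshold. The genes were chosen as heat shock genes, whose promoters carry such elements, so the choice alone favours a high count. With 5 peaks, this count is no measure of what CG4707 binds. At Hsp26 an element was centred 4 bp from the summit and another 92 bp away, and at Hsp68 they were centred 36 and 69 bp away, on the upstream side in each case. Some of these promoters held the element without a peak. Within 300 bp upstream it occurred at 7 of 11 annotated TSSs of the 8 genes, covering 6 genes, and at 15.6% of 19607 TSSs of protein-coding genes. The 6 include Hsp22, Hsp23 and Hsp67Bc, which had no peak, and the 2 genes without it were Hsp27, with the peak at rank 273, and Hsp67Ba. An element of 3 units in a row (the 2-unit element followed, after any 2 bases, by a further inverted unit) was found upstream of Hsp68 only, in 3 overlapping matches that start 182, 177 and 172 bp before the TSS, and at 0.428% of TSSs. It lay within 100 bp of the summit in 0 of the 5 peaks and in 0.0576% of all peaks. An absent match says only that these letters are not in the window.

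The short sequences found in excess in the CG4707 peaks as a whole were also sought, again within 100 bp of the summit. The 8-mer CACTGTGC lay in 0 of the 5 peaks and in 9.91% of all peaks. The 6-mer ACAGTG lay in 1 of 5, the Hsp83 intron, in 26.5% of all peaks and in 12.3% of promoter regions below the threshold. With 5 peaks such counts cannot show a difference. The GAGA motif, searched as GAGAG, lay within 100 bp of the summit in 1 of 5, at Hsp26, where 6 matches, some of them overlapping, were counted (ctctc in the printed strand). It lay in 29.5% of all peaks and in 29.0% of promoter regions below the threshold, so it was not in excess in the peaks. The Hsp22 region just below the threshold also held 6 matches within 100 bp of its summit. TATAAA lay within 100 bp of the summit in 3 of 5 peaks, at Hsp83, Hsp26 and Hsp68, and in 29.8% of all peaks. At Hsp83 and Hsp68 the match was centred 28 and 26 bp before the nearest TSS. The Hsp26 matches were centred farther off, 133 and 135 bp before it. Within 300 bp upstream, TATAAA was present at 10 of 11 annotated TSSs of the 8 genes, covering 7 genes, and at 44.5% of all TSSs searched.

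**Figure D4:**
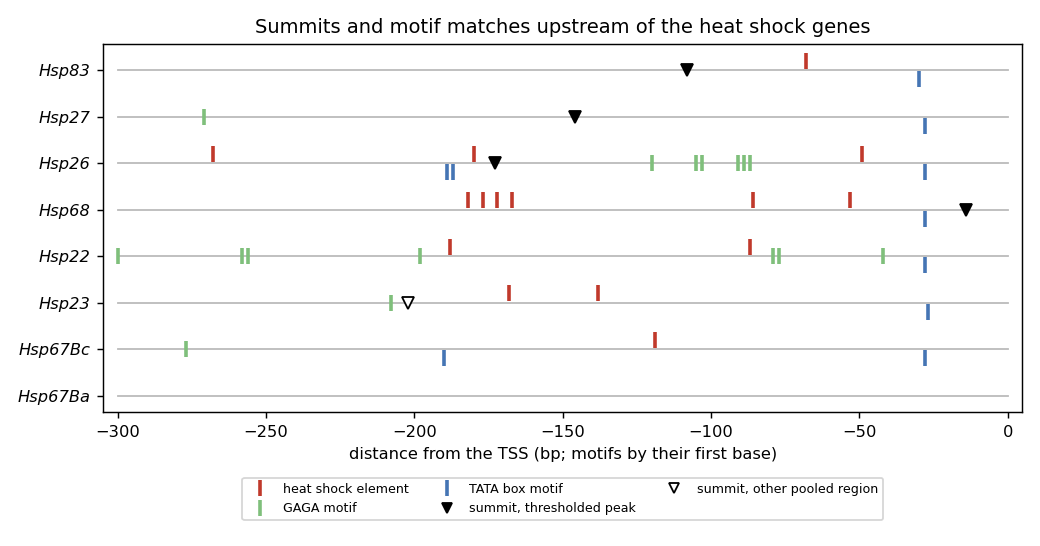
Summits of pooled regions and motif matches in the 300 bp before the TSS (the downstream TSS for Hsp83, Hsp26 and Hsp22), 1 line per gene, with ticks at the first base of a match. Filled triangles are thresholded peaks and the open triangle is a pooled region below the threshold. Hsp26, Hsp68, Hsp22 and Hsp23 each have 2 or more heat shock elements. Summits of thresholded peaks stand at the first 2 of these 4 and not at the others. The Hsp22 region at rank 3591, just below the threshold, has its summit 396 bp upstream and so is off the axis.

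The other genes of the pathway were taken from a list of 37 genes. They were Hsf, other Hsp70 and Hsp90 family members, Hsp60 and Hsp10 chaperonins, other small heat shock proteins, co-chaperones and the heat shock RNA lncRNA:Hsromega. Of these, 10 (27.0%) had a peak in the body or within 1 kb, and 18.2% of all genes did. Within 500 bp of a TSS of the listed gene the count was 5 of 37 (13.5%), and 10.5% of all genes had one. The 10 genes held 16 peaks, and for 12 of these the nearest TSS was that of the listed gene. The peak of Hsf, the regulator itself, ranked 1163 (1742 and 799 in replicates 2 and 3). It lay 720 bp upstream of Hsf and 72 bp from a TSS of Pcl. In the same way the peak of Trap1, the mitochondrial Hsp90, lay 7 bp from the TSS of Vha16-1, and that of Stip1, which links Hsp70 to Hsp90, lay 10 bp from the TSS of Pi3K21B.

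Among the genes with a peak nearest to their own TSS, mrj, which encodes a DnaJ co-chaperone, had 3, at ranks 344, 473 and 3300. All of them lay in introns. Hsc70-3, the Hsp70 of the endoplasmic reticulum (BiP), had 1 at rank 782, 530 bp upstream. Of the 2 peaks of lncRNA:Hsromega, a nuclear RNA made in quantity on heat shock, the higher, at rank 787, lay 1082 bp and the lower, at rank 1490, lay 217 bp downstream of a TSS. Hsc70-5, the mitochondrial Hsp70, had a peak at rank 1303 with its summit 1 bp from the TSS. Its other peak, at rank 3431 (2578 and 10933 in replicates 2 and 3), lay 203 bp upstream. The nearest TSS to that peak was of CG8531, 98 bp away. DnaJ-1, an Hsp40 co-chaperone, had a peak at rank 1507, 7 bp from the TSS. The BAG protein gene stv had 2 upstream, at ranks 1441 and 2495, and the small heat shock gene CG14207 had 2, at ranks 2114 and 3036. A heat shock element of 2 units lay within 100 bp in 3 of the 16 peaks, at DnaJ-1, stv and lncRNA:Hsromega. None of the 10 genes had a peak as high as the promoter peaks of Hsp83 and Hsp27.

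**Figure D5:**
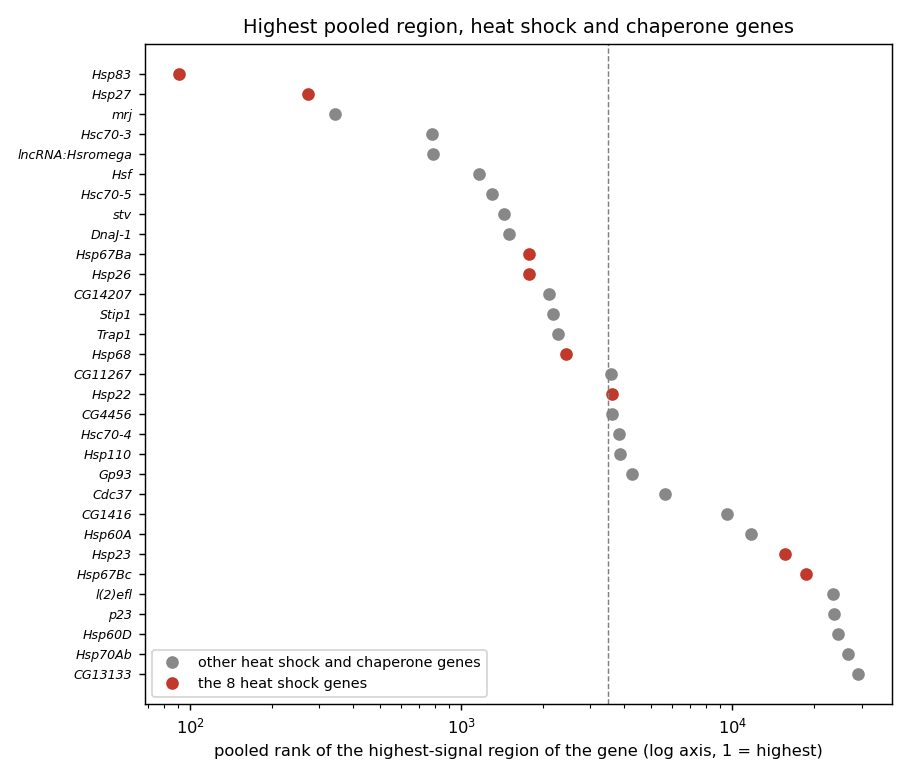
Pooled rank (log axis) of the highest region of the 8 heat shock genes (red) and of the 23 other genes with a pooled region (grey), with the dashed line at rank 3470. Hsp83 and Hsp27 are the leftmost points, and a run of genes including Hsp22 lies just right of the line.

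Of the other 27 genes, 13 had pooled regions below the threshold and 14 had none. Some of the 13 stood close to the line and others far from it. Hsc70-4, the main cytosolic Hsc70, had a region 14 bp from its TSS at pooled rank 3806, with ranks of 2765 in replicate 2 and 5162 in replicate 3. Hsp110, a nucleotide exchange factor, ranked 3860 (2419 and 4847). CG11267, also called Hsp10, ranked 3584 (3190 and 4141). Gp93, the Hsp90 of the endoplasmic reticulum, ranked 4277 and 2787 in replicate 2, while replicate 3 had no region in the gene or within 1 kb. These 4 genes were picked after their values were seen. CG4456 stood as close, at rank 3591, through the region inside Hsp22. Farther off were Cdc37 at rank 5640, CG1416 at 9558, Hsp60A at 11698 and l(2)efl at 23498. So were p23 at 23671, Hsp60D at 24598 and CG13133 at 29212. The 14 genes with no pooled region include the co-chaperone genes Droj2, Fkbp59 and STUB1. Among the 6 heat-inducible Hsp70 genes, which are near-identical copies, 1 had a pooled region, Hsp70Ab at rank 26838. How reads from repeated sequence were placed is not given in the sources used here, so the values of these 6 genes are uncertain.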

How the data were processed

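Whole embryos of 1 group in 2 replicates were measured. The authors derived a region list from each replicate, and 1 from both together, against a control alignment, and passed these through a reproducibility threshold, per the deposited file listing; the aligner is not given in the sources used here, nor is the caller. Peak signal is a score of the authors' caller in an undescribed unit. The deposited −log10 q-values were not used to choose or rank regions, and are quoted only for low regions of Hsp23 and Hsp67Bc, beside the Hsp27 peak. The lists are on dm6 per the labels, 0 regions ran past a chromosome end, and depth is unknown. The summit is the region start plus the deposited offset. Summits were placed on Ensembl release 115 genes, transposable elements excluded. The 8 genes, the 37-gene list (6 names matched through RefSeq synonyms) and the motifs were chosen with earlier results of these data known. Named genes are the 8, listed genes with a peak, genes with a TSS at their peaks (none beyond the 8) and peaks adjacent in rank; others were named after their values were seen. No p-value was computed. Placement and motif code was tested on simulated data. The search upstream of TSSs was added after the data were seen. Alternatives are given in the closing section. Python 3.11.15, numpy 2.4.6, pandas 2.3.3 and matplotlib 3.10.9 were used.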

Additional observations from a re-analysis of the deposited data

How the results depend on the processing

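Of 24 alternatives, 20 left the counts within 1.5 times the reported ones. The exceptions follow. With summits in the gene body only, 1 of the 8 genes (Hsp83) and 4 of the 37 others had a peak, beside 8.56% of all genes. With the upper part of the peaks by signal (1735), 2 of the 8 genes had one, Hsp83 and Hsp27, beside 10.6% of all genes. With an element of 3 units, 0 of 5 peaks held it. Without replicate 2 or replicate 3 the 8 genes gave 6 and 5, the promoters 5 and 4, the other genes 11 and 13, and the elements 3 and 3 (this last was added after seeing the data). Without replicate 2, Hsp22 was added. No paired analysis was possible because there is 1 group. Only ranks carry over between lists, and 2 replicates give no error beyond their range.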

Other observations

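Several weak regions counted to the 8 genes stood at other genes. In replicate 3 a region within 1 kb of Hsp68 (rank 10763) lay 9 bp from the TSS of SMC1, which encodes a cohesin subunit. In replicate 2 a region near Hsp67Bc (rank 21241) lay 176 bp upstream of Fdx1, a ferredoxin gene. In the same list as the SMC1 region, one within 1 kb of Hsp26 (rank 18493) lay inside CG4461, 744 bp from its TSS.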
